A study of Mus musculus with 12 samples.

Results

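Border-associated macrophages were taken as nuclei, in RNA sequencing of single nuclei from the left hippocampus of mice, in which macrophage markers of the brain's borders were read out together. A nucleus with 500 to 10000 detected genes was a member if it held at least 1 unique molecular identifier (UMI, 1 counted RNA molecule) of at least 2 of the 6 genes Mrc1, F13a1, Cd163, Stab1, Ms4a7 and Lyve1, and at least 1 UMI of Csf1r, Inpp5d or Cd74. A member also had at most 1 UMI in all of the neuron genes Slc17a7, Slc17a6, Gad1 and Gad2, and no UMI of Mog, a myelin gene. This rule took 109 of 184957 nuclei. The nuclei came from 12 libraries, each made from 1 female mouse: 3 from 3xTg-AD mice and 3 from wild-type (WT) mice at 6 months of age, and 3 of each genotype at 12 months. 3xTg-AD mice carry human APP and tau transgenes with familial disease mutations, driven by the neuronal Thy1 promoter, beside a mutant allele at another locus, so that the transgenes are a model of neuronal rather than macrophage expression. All mice were perfused with saline before the hippocampus was frozen, and the nuclei were sorted before loading.

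Border-associated macrophages are the resident macrophages of the meninges, the perivascular spaces and the choroid plexus. They share the growth factor receptor CSF1R with microglia, the macrophages of the brain tissue itself, but they carry scavenger and endocytic receptors that take up protein, lipid and debris from the fluid around vessels. A part of them displays MHC class II, the molecules that present antigen to helper T cells, and another part carries the hyaluronan receptor LYVE1. In Alzheimer's disease these cells are studied for their place along the vessels where amyloid is deposited.

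The rule rests on Mrc1, the mannose receptor CD206, F13a1, the A subunit of clotting factor XIII, and Stab1, the scavenger receptor stabilin-1, more than on the other 3 genes. The 100 bases upstream of the RefSeq start of each are shown (GRCm38.p6, written in the direction of transcription) as the regulatory sequence beside the genes that define the members. GAGGAA, the core of the site of PU.1, a factor that macrophages need, was searched on both strands, and each match is in capitals.
Mrc1, plus strand of chr2:14229314-14229413: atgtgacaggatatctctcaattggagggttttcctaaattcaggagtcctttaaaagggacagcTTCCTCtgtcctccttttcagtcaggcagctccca
F13a1, minus strand of chr13:37050245-37050344: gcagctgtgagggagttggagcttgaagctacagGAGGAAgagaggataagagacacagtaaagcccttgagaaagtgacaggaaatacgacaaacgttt
Stab1, minus strand of chr14:31168642-31168741: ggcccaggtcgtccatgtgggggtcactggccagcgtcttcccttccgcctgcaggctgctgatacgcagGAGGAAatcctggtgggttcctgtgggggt
The matches began 35, 66 and 30 bases before the start of Mrc1, F13a1 and Stab1. Over the 250 bases upstream, Mrc1 had 3 matches and F13a1 and Stab1 1 each, F13a1 at the first of its 2 listed starts. Cd163 and Ms4a7, of the same rule, had none in this window, at either listed start of Ms4a7. These letters are common: the same window held at least 1 match in 25.9% of 27025 genes of the mouse table. A match describes the sequence and was not measured as a binding site.

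The values of the 6 chosen genes follow from the rule and are given as a description with no test. Mrc1 had a UMI in 94.5% of members, F13a1 in 93.6%, Stab1 in 86.2%, Cd163, the receptor for haemoglobin bound to haptoglobin, in 56.9%, Ms4a7, a membrane-spanning protein of macrophages, in 45.0%, and Lyve1 in 31.2%. Of the 109 members, 93 had 3 or more of the 6 genes. Microglia for comparison were taken by a rule of the same form, with at least 2 of P2ry12, Tmem119, Siglech, Sall1, Gpr34 and Slc2a5 and the other limits as above, among nuclei that were not members. That rule took 1741 nuclei, and Mrc1 reached 2.33 CPM (counts scaled to the same total of UMIs in each sum) in them against 3174 CPM in the members. F13a1 stood at 0.776 CPM in microglia and at 6305 CPM in the members. Stab1 differed less, at 101 CPM in microglia and 1854 CPM in the members, and 18.6% of microglia held a UMI of it. Free RNA in the droplets can place UMIs in nuclei that do not express a gene: of 52040 neuronal nuclei, which had a median of 9495 UMIs against 1607 in the members, 0.475% held Mrc1 and 1.66% held F13a1.

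Just inside the rule, the 16 members with exactly 2 of the 6 genes held Mrc1 and F13a1 in 75.0% each, and Dab2, a clathrin adaptor outside the rule, in 68.8%. Just outside it, 417 nuclei had 1 of the 6 genes and met the other limits. Stab1 was that single gene in 361 of them, and these 361 nuclei held Tgfbr1, a TGF-beta receptor gene strong in microglia, in 95.6% and Dab2 in 5.26%. A further 28 nuclei had 2 or more of the genes but no Csf1r, Inpp5d or Cd74, and 25 passed both arms but exceeded the limit on neuron UMIs or Mog. Of those 25 nuclei, 60.0% were called doublets (2 nuclei in 1 droplet) by Scrublet.

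The label was then checked against genes the rule did not use. Dab2 had a UMI in 87.2% of members, 2.99% of microglia and 7.78% of neurons, and Apoe, the lipid carrier, in 98.2%, 23.2% and 21.0%. Tgfbr1 had a UMI in 40.4% of members and 97.4% of microglia. All 25 genes of a list of border macrophage genes outside the rule had UMIs in the members. So did 18 of 20 genes of a microglia list and 13758 of 32285 genes of the annotation, so this count does not set the label apart. Together the 25 genes made up 8440 to 22818 CPM per library against 1409 to 1847 CPM in microglia. Lists of other cells were mixed. Microglia genes outside the rules stood at 5145 CPM in the pooled members and 13506 CPM in microglia. The markers of the microglia rule stood at 659.8 and 2902 CPM, and P2ry12 had a UMI in 38.5% of members and 77.7% of microglia. The neuron list had UMIs of all its 6 genes, at 3924 CPM in the pooled members and 3362 CPM in microglia, against 15738 CPM over all nuclei, and reached 8738 CPM in 1 library of members. The astrocyte (763 CPM), oligodendrocyte (384), OPC (487), pericyte (38.8) and choroid plexus (77.6) lists were also present, with single libraries up to 2151, 2499, 1568, 276 and 276 CPM. Other lists were mostly at 0: of 6 endothelial genes 5 were at 0 in the members, of 8 T and B cell genes 7, of 7 fibroblast genes 4, and of 10 genes of monocytes, neutrophils and dendritic cells 7. The 3 genes of the last list that were present were Ccr2, in 8 members, and Flt3 and Cd209a, in 3 each. This last list stood at 121 CPM in the pooled members, 30.8 CPM in microglia and 47.6 CPM over all nuclei, with single libraries of members up to 305 CPM. The levels of the border macrophage genes therefore fit the label, beside UMIs of microglia, neuron and other glia genes and of the 3 genes of the last list. The source of those UMIs was not tested. Among the members 23 passed the microglia rule as well, and 8 (7.34%) were called doublets, against 10.2% of microglia and 7.01% of all nuclei.

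The libraries held 79155331 to 128303515 UMIs in 11352 to 19811 nuclei, and the members together held 231884 UMIs, 640 to 12565 per nucleus. App, which the mice carry as a human transgene beside their own gene, stood at 574 to 627 CPM over all nuclei of the 3xTg-AD libraries and at 528 to 648 CPM in WT, and so did not check the genotype labels. No sequence of a barcode was shared between members, although 4216 barcode sequences occurred in more than 1 library. Only 4 libraries reached 10 members, which is the number of cells that the study required of a cell type in a sample, and these 4 held 68 of the 109. A library with 2 or 3 members gives a coarse profile, and the gene tests below are limited by that number.

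The members were rare in every library and uneven among animals. In 3xTg-AD mice at 6 months 9, 6 and 5 members were found, or 6.35, 3.79 and 2.80 per 10000 nuclei (replicates 1, 5 and 9). The WT libraries of that age held 2, 3 and 13, or 1.65, 1.88 and 8.24 per 10000 (replicates 3, 7 and 11). In the older 3xTg-AD mice 4, 21 and 9 members were found, or 2.66, 13.4 and 4.54 per 10000 (replicates 2, 6 and 10). The WT libraries of that age held 19, 15 and 3, or 10.5, 11.3 and 2.64 per 10000 (replicates 4, 8 and 12). Within each group the highest library thus stood well above the lowest, and all 4 groups overlapped. The exact 95% binomial intervals, which cover counting error only, ran from 0.20 to 5.96 per 10000 for the library with 2 members and from 8.28 to 20.4 for the library with 21.

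Per 10000 nuclei, the older libraries had 7.51 ± 4.78 members and the younger 4.12 ± 2.64 (SD over 6 libraries each). The gap of 3.40 was not told apart from the gaps found when the age labels of the libraries were exchanged (two-sided exact permutation test, p = 0.152). The genotypes had 4.31 ± 1.84 (3xTg-AD) and 3.92 ± 3.74 (WT) in the younger mice (SD over 3 libraries each, p = 0.80 by the exact permutation test). In the older mice the values were 6.86 ± 5.72 and 8.17 ± 4.81 (p = 1.00 by the same exact test). Neither direction was stable. The 6-month difference, 3xTg-AD minus WT, was -0.565 and -0.0653 when nuclei were thinned to 2000 and 1000 UMIs and down to -0.742 without replicate 1, 3 or 7, and the 12-month difference was 0.784 without replicate 2 and 0.267 without replicate 8. With 3 libraries against 3 the exact test cannot go below p = 0.10. Counted against microglia, there were 6.79 ± 4.45 members per 100 microglia in the older libraries and 6.58 ± 4.67 in the younger (SD over 6 libraries, p = 0.957 by exact permutation). The direction of this gap of 0.214 changed with the processing. It was -0.403 without the doublets, -0.195 when nuclei were thinned to 2000 UMIs, and negative when any 1 of 7 libraries (replicates 3 to 9) was left out, down to -0.970 without WT replicate 8. The age difference in this ratio was -2.73 in 3xTg-AD and 3.16 in WT, and the difference between these did not pass (interaction, permutation test of 12 libraries, p = 0.255).

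**Figure D1:**
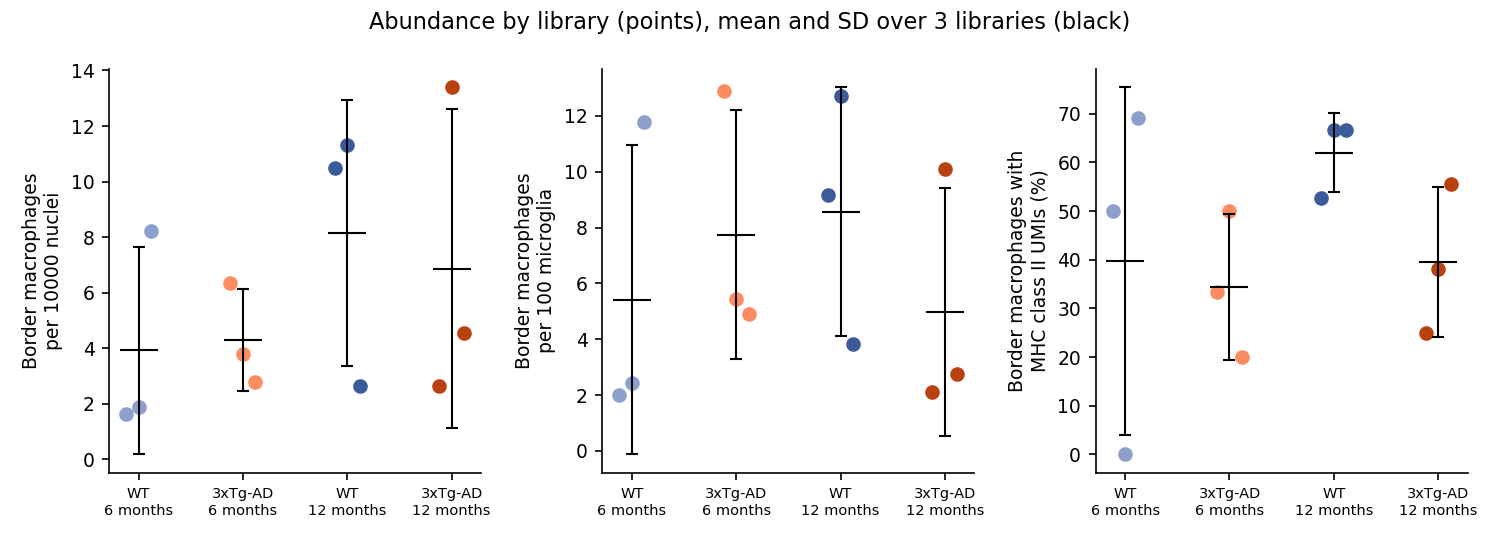
Members per 10000 nuclei (left), members per 100 microglia (middle) and percent of members with MHC class II UMIs (right) in each of the 12 libraries, by genotype and age, with the mean and SD of 3 libraries in black. Each group of 3 spreads widely, from 1.65 to 8.24 per 10000 in WT at 6 months and from 2.66 to 13.4 in 3xTg-AD at 12 months, and the groups overlap.

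To see what sets these cells apart from their nearest relatives, UMIs were summed per library for the members and for microglia and compared with library as a block (edgeR quasi-likelihood test, Benjamini-Hochberg adjustment). The genes of both rules were left out of the test. Of 1955 genes tested, 153 were higher in the members (7.83%) and 255 lower (13%) (adjusted p under 0.05, log2 fold change beyond 0.2 either way). DESeq2 called 485 genes in either direction against these 408. The median log2 fold change of all tested genes was -0.12, so values are read relative to a small shift towards lower. The filter on low counts asked for about 111 CPM in at least 12 of the 24 sums. In all 12 libraries of 1 type, 32 of the 153 higher genes reached this in the members alone and 205 of the 255 lower genes in microglia alone. Such genes could enter the test only through the type where they are high. Their number, their p-values and the gaps between their libraries therefore describe the 2 sums and lend no support to a difference. Dab2, Aoah, Ifi203, Rbpj, Itsn1, Myo5a, Man2a1, Mdfic, Lilrb4a, F630028O10Rik, Gas6, Ms4a6b and Ms4a6c are of the first kind, whereas Apoe reached it in both types. In all libraries of both types it was reached by 45 of the higher and 28 of the lower genes. A further 47 higher and 22 lower genes passed only over the sums of both types together, and some of these passed mainly through 1 type.

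Of the higher genes, the 15 with the smallest adjusted p were higher in the members of 12 of 12 libraries, except Colec12, and several have known roles in uptake and innate immunity. All of them but Apoe and Colec12 reached the filter's level in the members alone, so for these the count of libraries is a description. Colec12 reached it in 11 libraries of members and 2 of microglia and so passed mainly through the members. Its count of libraries and its p-value are a description too. Dab2, which links cargo receptors to clathrin, stood at 926 CPM in the lowest library of members, 2116 at the median and 5617 in the highest, against 4.73, 15.2 and 36.0 CPM in microglia (log2 fold change 6.82 ± 0.3 SE, adjusted p = 8.27e-17). Aoah, the hydrolase that inactivates bacterial lipopolysaccharide, ranged from 427 to 1362 CPM in members with a median of 889, and from 0 to 8.78 CPM in microglia, a pooled fold of 387 with a counting interval of 200.1 to 859. Ifi203, of the family of interferon-inducible DNA-binding proteins, was read 79 times in members and 2 times in microglia, or 124, 365 and 815 CPM against at most 4.73 CPM, a pooled fold of 659 with a counting interval of 176 to 5534. For each of these 3 genes the lowest library of members lay above the highest of microglia. Aoah had 9 UMIs in all microglia, so its fold, like that of Ifi203, is given from the pooled counts.

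Rbpj, the DNA-binding factor of Notch signalling, had 1250, 4804 and 7723 CPM in the lowest, median and highest library of members and 77.7, 122 and 259 CPM in microglia (4.89 ± 0.27, adjusted p = 8.09e-15). Rbpj was also read in 29.8% of neurons at low level. Apoe had 2225, 3317 and 8579 CPM in members and 118, 259.7 and 446 CPM in microglia (3.71 ± 0.21, adjusted p = 1.22e-14). In oligodendrocytes, which had a median of 2143 UMIs, 49.6% of nuclei held an Apoe UMI, and the part of free RNA in either share was not tested. The member values of both genes lay above all microglia values.

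Others of the 15 genes with the smallest adjusted p were Itsn1, a scaffold of endocytic pits (3.71 ± 0.22, adjusted p = 2.94e-14), Myo5a, an actin motor (3.23 ± 0.24, adjusted p = 1.03e-11), and Man2a1, a Golgi mannosidase (3.21 ± 0.26, adjusted p = 8.29e-11). Mdfic, a regulator of transcription, had 128 to 1678 CPM in members and 0 to 33.6 CPM in microglia (4.85 ± 0.32, adjusted p = 8.56e-13). Lilrb4a, an inhibitory receptor of myeloid cells, had 122 to 1563 CPM and 0 to 22 CPM (5.81 ± 0.43, adjusted p = 9.93e-12), and reads of such receptor families may be shared with near copies. F630028O10Rik, annotated as an antisense RNA on the X chromosome, had 365 to 1876 CPM and 0 to 7.47 CPM (10 UMIs), a pooled fold of 343 with a counting interval of 183 to 727, where the strand setting of the counting was not given in the sources used here. Colec12, a collectin that binds oxidised lipoprotein and amyloid, was the exception in that its libraries overlapped: 0, 1046 and 2704 CPM in members against 0, 5.66 and 277 CPM in microglia, and higher in 11 of 12 libraries (5.67 ± 0.46, adjusted p = 1.03e-10).

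**Figure D2:**
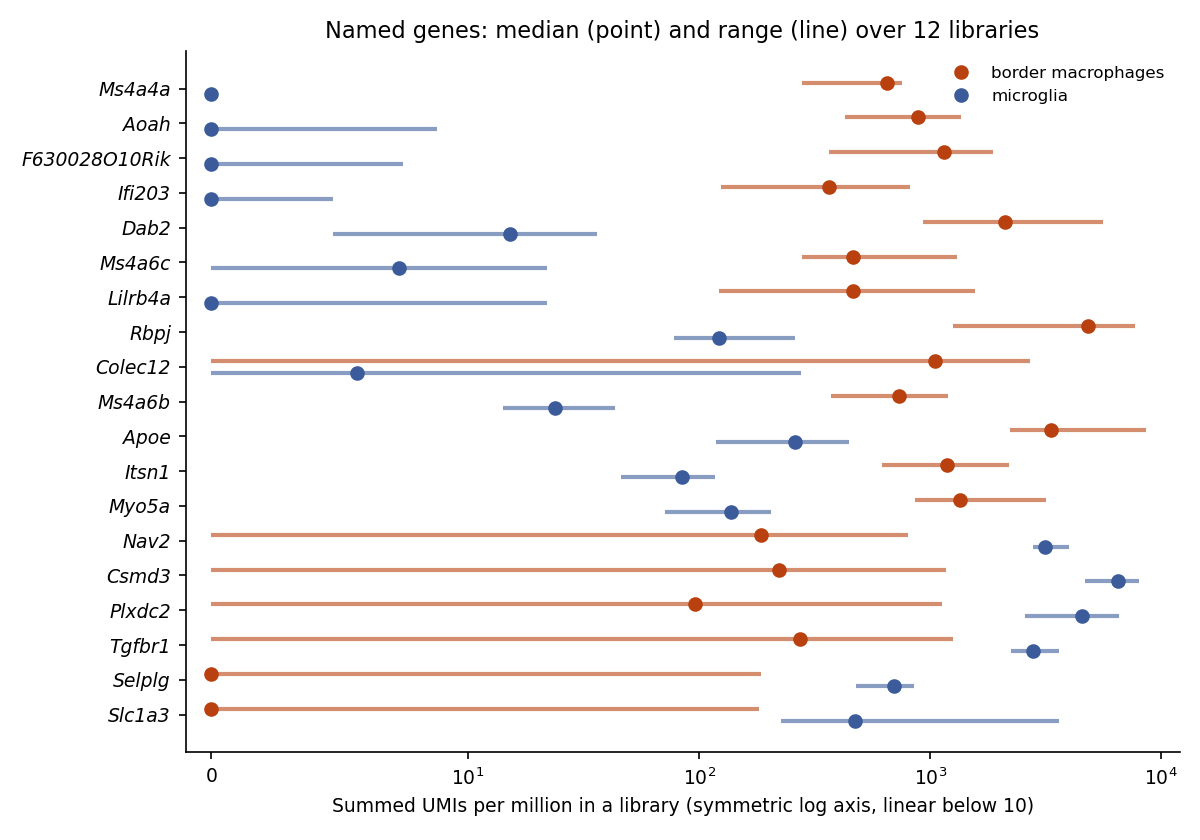
Levels of named genes in members and microglia, as CPM on a symmetric log axis that is linear below 10, with the median (point) and range (line) over 12 libraries. Dab2, Aoah and Apoe are higher in members and Nav2 and Tgfbr1 lower with no overlap, whereas the Colec12 lines overlap at 0.

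A run of Ms4a genes on chromosome 19 stood out among these and was looked at as a cluster after its values were seen. The Ms4a genes encode membrane proteins of immune cells, and variants near their human relatives are associated with Alzheimer's disease. All 19 Ms4a genes of the annotation lie between positions 10962293 and 11640851 of chromosome 19 (mm10), and 8 of them had a UMI in the members, with Ms4a7 of the rule among the 8. Over all genes of the annotation 13758 of 32285 had a UMI in the members, and 7 of the 19 Ms4a genes had one in microglia. The count of 8 therefore does not set the cluster apart. Ms4a6c had 278, 461 and 1305 CPM in the lowest, median and highest library of members against 0, 7.33 and 22 CPM in microglia (log2 fold change 5.61 ± 0.31, adjusted p = 1.22e-14). Ms4a6b had 370.5, 730.1 and 1198 CPM against 14.2, 23.8 and 43.3 CPM (4.55 ± 0.26, adjusted p = 2.94e-14). Ms4a4a had 278, 652 and 758 CPM in members and no UMI in any microglia, at least 706-fold higher over the pooled nuclei when microglia are set at the limit of 3 counts. It passed the filter on low counts through the members alone, so its place among the called genes is no support. All 3 genes separated without overlap, which is a description, since all 3 reached the filter's level in the members alone.

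Ms4a6d, on the minus strand of the same region, was 6.45-fold higher in the pooled members (280.3 against 43.4 CPM, counting interval 4.77 to 8.64), and Ms4a14 stood at 73.3 CPM against 0. Ms4a4b had only 1 UMI in members and 8 in microglia, 4.31 and 2.07 CPM, too few for a direction. The upstream sequences of the neighbours Ms4a6c and Ms4a6b are shown because they carry a common stretch: 48 bases are identical, given in capitals within the 150 bases before each RefSeq start (GRCm38.p6).
Ms4a6c, plus strand of chr19:11469218-11469367: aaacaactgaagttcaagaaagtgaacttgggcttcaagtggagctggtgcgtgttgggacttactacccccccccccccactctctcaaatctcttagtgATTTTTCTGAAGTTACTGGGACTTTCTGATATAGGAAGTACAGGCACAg
Ms4a6b, plus strand of chr19:11518409-11518558: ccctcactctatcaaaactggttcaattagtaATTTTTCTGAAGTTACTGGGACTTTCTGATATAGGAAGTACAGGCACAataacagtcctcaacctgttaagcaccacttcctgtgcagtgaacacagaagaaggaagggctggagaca
The shared run begins 49 bases before the start of Ms4a6c and 118 bases before that of Ms4a6b. The GAGGAA core had no match in the 250 bases before either gene or before Ms4a4a. Near copies such as these can share reads, so the division of UMIs between Ms4a6b and Ms4a6c is less certain than their sum.

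The genes lower in the members included many that mark microglia. Selplg, the P-selectin ligand, had 0, 0 and 186 CPM in the lowest, median and highest library of members against 479, 700.0 and 849.5 CPM in microglia (log2 fold change -3.96 ± 0.39, adjusted p = 4.45e-09). Tgfbr1, a TGF-beta receptor that microglia need for their identity, had 0, 273 and 1250 CPM against 2246, 2773 and 3606 CPM (-2.97 ± 0.3, adjusted p = 5.92e-09). No library of members reached the lowest library of microglia for either gene, but both genes reached the filter's level in microglia alone, so neither this gap nor their p-values are support for a difference.

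Nav2, a cytoskeletal protein, had 0, 185 and 802 CPM against 2778, 3127 and 3973 CPM and had the smallest adjusted p of the lower genes (-3.74 ± 0.3, adjusted p = 6.44e-11). Numb, an inhibitor of Notch, had 0, 172 and 365 CPM against 867, 1414 and 1971 CPM (-2.85 ± 0.32, adjusted p = 3.24e-08). Others of the 15 were the non-coding genes A830008E24Rik and Gm2629 and the genes Csmd3, Plxdc2, Plcl1, Lhfpl2, Atp8a2, Rapgef5, Slc1a3 and Asph, and every one was lower in 12 of 12 libraries. These 10, Nav2 and Numb also reached the filter's level in microglia alone. A830008E24Rik, Lhfpl2 and Gm2629 had 1, 4 and 6 UMIs in the members, and the log2 fold changes of the other 7 ran from -4.56 to -3.15. Slc1a3, the glutamate transporter of astrocytes, varied from 227 to 3593 CPM among the microglia sums, and the astrocyte gene list varied there from 491 to 4104 CPM. The part of free or attached astrocyte RNA in that difference was not tested.

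The gene lists set these differences in order, and only genes with enough UMIs could be tested. The counts below describe the tested genes and cannot stand for the whole list, because a gene that is read in 1 cell type alone passes the filter through that type. Of all 1955 genes tested 7.83% were higher and 13% lower, and the counts of each list are set beside these shares without a test. Of 25 border macrophage genes outside the rule, 9 were tested: 8 were higher (Dab2, Colec12, Rbpj, Nrp1, Gas6, Maf, Selenop and Ltc4s) and Blnk, a B cell and macrophage adaptor, was lower, with a median log2 of 2.79. Dab2, Rbpj, Nrp1 and Gas6 reached the filter's level in the members alone and Blnk in microglia alone. Colec12 and Selenop reached it in 11 libraries of members each, and in 2 and 6 libraries of microglia. The call of Ltc4s, an enzyme of leukotriene synthesis, was lost without any of 6 single libraries (adjusted p by edgeR up to 0.107, without 3xTg-AD replicate 10). Gas6, a ligand that bridges dying cells to phagocytes, had 146, 280.1 and 585 CPM against 18.8, 34.5 and 74.5 CPM. Of 20 microglia genes outside the rules, 15 were tested: 13 were lower, Entpd1 was not called and Fcrls was higher (1.8 ± 0.29, adjusted p = 1.67e-05), with a median of -1.84. Fcrls reached the filter's level in 11 libraries of members and 6 of microglia. Of the 13 lower genes Mef2a reached the filter's level in both types and the others in microglia alone. Cx3cr1, the fractalkine receptor, was among the latter, at 0, 220.3 and 462 CPM against 594, 826 and 962 CPM.

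Scavenging and endocytosis genes did not move as a block: of 12 tested of 20, 5 were higher and 6 lower, against 7.83% and 13% of all genes tested, with a median of -0.17. The higher ones were the clathrin and lysosome genes Ap2a2 (2.27), Cltc (0.83), Lamp1 (0.87) and Ctsb (1.56) and the Wnt receptor Lrp6 (1.71), and the lower ones were Havcr2 (-3.74), Lrp1 (-1.66), Ctsd (-1.51), Mertk (-0.98), Picalm (-0.83) and Ctss (-0.83). Ap2a2 and Ctsb reached the filter's level in the members alone, and Havcr2, Lrp1, Ctsd and Ctss in microglia alone. Lamp1 lost its call without any of 6 single libraries (adjusted p by edgeR up to 0.0909, without WT replicate 8). Of 6 complement and Fc receptor genes tested, 5 were not called and Itgam, which reached the filter's level in microglia alone, was lower (-1.04). C1qa had 342, 592 and 827 CPM in members and 233, 356 and 629 CPM in microglia (log2 0.51, adjusted p = 0.0997). C1qb (0.58, adjusted p = 0.0542) and C1qc (0.17, adjusted p = 0.675) were not called either, which does not show that they are equal. Of 11 transcription factors tested, Rbpj, Maf (1.5) and Nfatc2 (1.33) were higher and among the lower was Irf8 (-1.26), which reached the filter's level in microglia alone. Rbpj reached it in the members alone, and Nfatc2 in 11 libraries of members and 4 of microglia. Spi1, which encodes PU.1, was not called (-0.13).

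Of 21 risk genes of myeloid cells for Alzheimer's disease, 16 were tested. Apoe, Ms4a6b and Ms4a4a were higher, while Trem2 (-1.2, adjusted p = 0.0346), Bin1 (-0.82), Picalm, Abi3 (-2.14), Plcg2 (-1.8) and Ptk2b (-1.35) were lower, against 7.83% higher and 13% lower over all genes tested. Of these 9 Apoe and Picalm reached the filter's level in both types, Ms4a6b and Ms4a4a in the members alone and the other 5 in microglia alone, so the split of the list is a description. Trem2, the lipid receptor of the microglial response to plaques, had a UMI in 17 of 109 members. Leaving out 1 library could end the call of Trem2 (adjusted p by edgeR up to 0.102, without WT replicate 8 at 12 months) and of Bin1 (up to 0.0640, without WT replicate 4 at 12 months). Of 20 genes of disease-associated microglia, 5 were tested, with Apoe, Ctsb and Fth1 (1.16) higher and Trem2 and Ctsd lower, beside the same 7.83% and 13%. App, the amyloid precursor gene, was higher in members (278, 771 and 3042 CPM against 261, 318 and 371 CPM, log2 1.27, adjusted p = 0.00053), with overlapping libraries and 575 CPM in neurons.

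**Figure D3:**
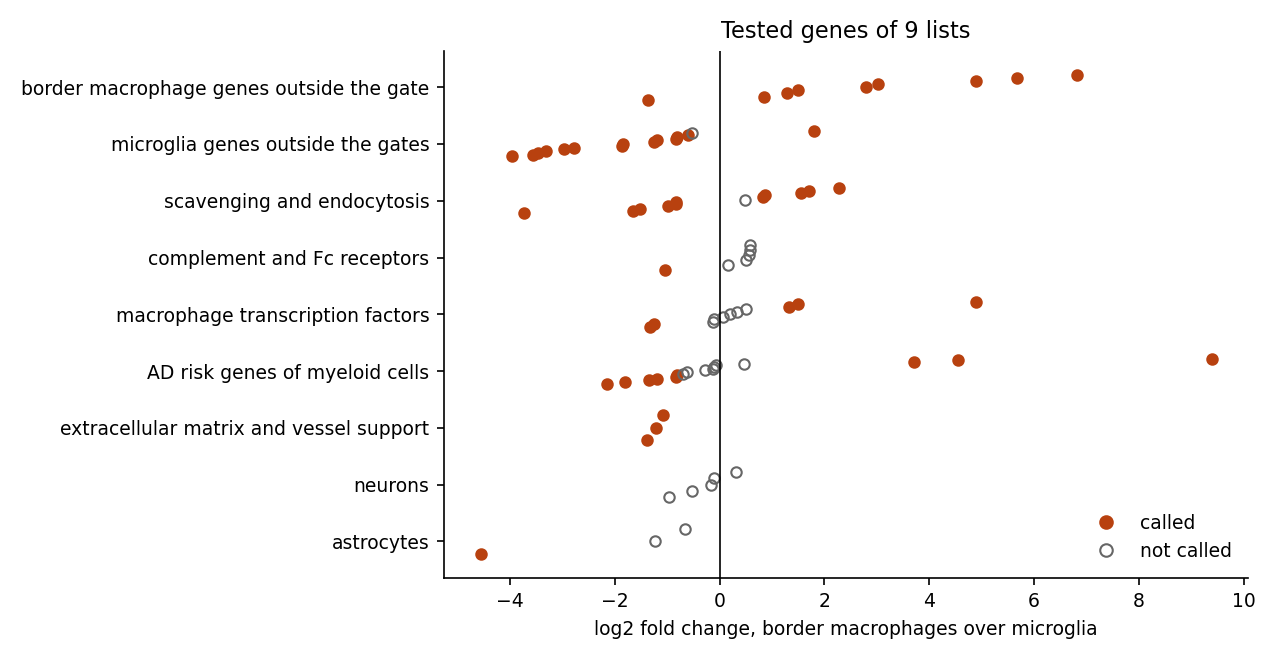
Log2 fold change of members against microglia for the tested genes of each list, with a point for each gene and called genes filled. The point farthest right is Ms4a4a, whose fitted fold is no bound since it had no UMI in microglia. Border macrophage genes lie mostly above 0 and microglia genes mostly below it, and the scavenging and risk gene lists lie on both sides.

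Many genes known from border macrophages were too sparse for the test, and some of them are given as pooled levels with no test. Pf4 (129 CPM), Cd209f (194) and Clec10a (164), a chemokine and 2 lectins, had no UMI in microglia, at least 167-fold, 250.1-fold and 211-fold higher against the limit of 3 counts. Cbr2, a carbonyl reductase, stood at 207 CPM against 0.259 CPM. Siglec1, the sialic acid receptor CD169, stood at 237 CPM against 1.55 CPM, Msr1, a scavenger receptor, at 194 against 1.55 CPM, and Igf1, a growth factor, at 181 against 9.05 CPM. Cp, the copper-binding ferroxidase, stood at 423 against 39.3 CPM and C4b, a complement component, at 203 against 9.31 CPM. Msr1, Igf1 and C4b were on other gene lists. Slc40a1, the iron exporter, was on the border macrophage list and also too sparse. It lay near its level in microglia and is given with the iron genes below.

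The members differed in their UMIs of MHC class II genes, and whether they form separate kinds was not tested. H2-Aa, H2-Ab1 and H2-Eb1, which encode its chains, were not in the rule, although their chaperone Cd74 was 1 of the 3 genes of its second arm. Cd74 alone of the 3 admitted 2 members. At least 1 UMI of the class II genes was found in 53 members and none in 56, and 324 such UMIs were counted in all. They were unevenly spread: 9 members had 1 UMI, 23 had 2 to 5 and 21 had more than 5, and the 5 highest members held 106. H2-Aa stood at 535 CPM in the members and 3.10 in microglia, and H2-Eb1 at 513 and 1.81 CPM. In neurons H2-Aa was at 0.0357 CPM.

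Members with and without class II UMIs had medians of 1607 and 1606 UMIs per nucleus (109535 UMIs in 53 and 122349 in 56 nuclei), and the genes that differed between them are given as a description with no test. Ciita, the master regulator of class II, was found in 30.2% of members with class II UMIs and 0% of those without, and was higher in 7 of the 11 libraries that held both kinds and lower in none. Klra2, a lectin-like receptor of a family of near copies, was found in 50.9% and 10.7%, and Ccr2, the receptor of monocyte recruitment, in 15.1% and 0%. Fewer members with class II UMIs held Cd163 (43.4% against 69.6%), Colec12 (39.6% against 64.3%), Gas6 (26.4% against 57.1%), C4b (17% against 44.6%) and Cd209f (7.55% against 26.8%). Colec12 and Gas6 were each lower in 9 of the 11 libraries. Apoe was read in nearly all members of both kinds (96.2% against 100%), but its level was lower with class II in 9 of the 11 libraries (3068 against 4054 CPM pooled). Of the rule's own genes, Stab1 was lower in 10 and Mrc1 in 8 of the 11.

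Lyve1 was found in 34 members. Of these 13 also had class II UMIs and 21 did not, 40 members had class II UMIs without Lyve1, and 35 had neither. The classes thus overlapped rather than excluding each other. Ccr2 had no UMI in any member with Lyve1 and was found in 20.0% of the 40 members with class II alone. At a median of 1607 UMIs per nucleus an absent UMI does not show that the gene is off.

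**Figure D4:**
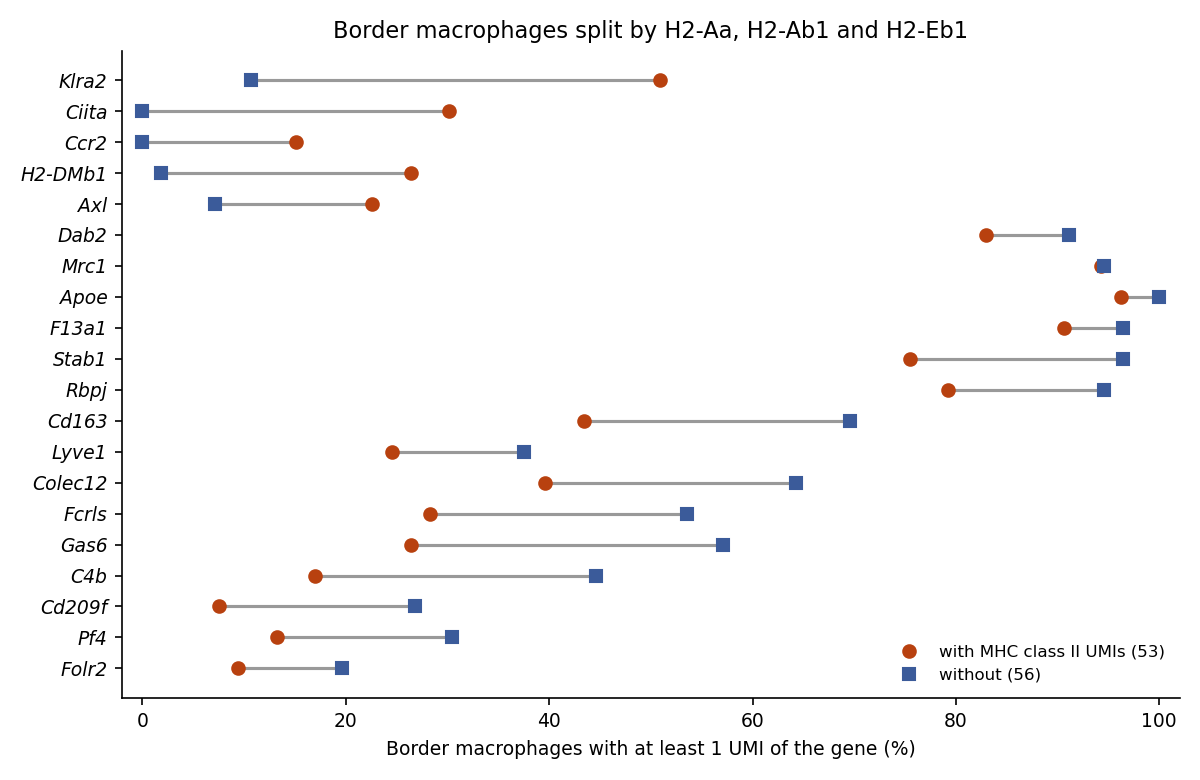
Percent of members with at least 1 UMI of each gene, for the 53 members with MHC class II UMIs and the 56 without. Ciita, Klra2 and Ccr2 are more frequent with class II, and Colec12, Gas6, C4b and Cd209f are more frequent without it.

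The share of members with class II UMIs was 33.3, 50.0 and 20.0% in the 3xTg-AD libraries at 6 months and 50.0, 0 and 69.2% in the WT libraries. At 12 months it was 25.0, 38.1 and 55.6% in 3xTg-AD and 52.6, 66.7 and 66.7% in WT, each in the order of replicates given above. The WT libraries at 12 months were the tightest group, at 62.0 ± 8.10% (SD, n = 3), but single libraries of other groups reached the same values. Over both genotypes the older libraries had 50.8 ± 16.5% and the younger 37.1 ± 24.7% (SD over 6 libraries, p = 0.284 by exact permutation). The age difference was 5.11 percentage points in 3xTg-AD and 22.2 in WT, and the interaction did not pass (permutation test of 12 libraries, p = 0.515). After thinning each member to 2000 UMIs, 39 members were deep enough and 15 of them had class II UMIs.

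The genotypes were compared at each age, as in the study's design. At 6 months 0 of 85 genes tested were called (0%), with 4 at an unadjusted p under 0.05 and 0 by DESeq2. The 5 genes with the smallest p in each direction were not called, among them Rbpj (log2 fold change of 3xTg-AD over WT 1.07) and Runx1 (1.06), a macrophage transcription factor, on the higher side, and Hdac9 (-1.1) and Arhgap15 (-0.98) on the lower side, all with an adjusted p of 0.643 by edgeR. Over both ages with age as a term, 0 of 113 genes were called (0%), with 7 at an unadjusted p under 0.05 and 0 by DESeq2. Rbpj (0.83) and Ext1 (0.79), an enzyme of heparan sulfate synthesis, were on the higher side with an adjusted p of 0.574 by edgeR. Kcnip4, on the lower side, had the smallest p of all (-1.46, adjusted p = 0.523 by edgeR).

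At 12 months 1 of 505 genes was called (0.198%), with 44 at an unadjusted p under 0.05 and 6 called by DESeq2. Lsamp, a cell adhesion gene of neurons, had 186, 413 and 366 CPM in the 3xTg-AD libraries (replicates 2, 6 and 10) and 3018, 2321 and 3797 CPM in the WT libraries (replicates 4, 8 and 12), with no overlap (log2 fold change -3.17 ± 0.46, adjusted p = 0.00595). At 6 months Lsamp had 453, 234 and 7025 CPM in 3xTg-AD and 313, 0 and 3719 CPM in WT. The summed neuron list moved with it at 12 months, at 792 to 3818 CPM in 3xTg-AD and 4538 to 8738 CPM in WT. Over the members of both ages, 64.6% of the Lsamp UMIs came from the 8 nuclei called doublets, which held 23.3% of all member UMIs. Of these 8, 1 was in a 6-month library (3xTg-AD replicate 9), and the share at 12 months alone was not counted. Without those 8 nuclei Lsamp was at 186, 331 and 429 CPM in 3xTg-AD and 409, 1230 and 476 CPM in WT, and the neuron list at 745 to 1119 and 706 to 3651 CPM. Lsamp reached 7629 CPM in neurons. Without 3xTg-AD replicate 2 or 10 the adjusted p (edgeR) was 0.0832 or 0.0726, in 1 fit of all 12 libraries it was 0.327 and with no filter on low counts 0.094. As each library was left out in turn, the log2 fold change with all members ran from -3.4 to -2.99. Without the doublets Lsamp had too few UMIs to be tested.

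The other leading genes at 12 months were not called. Among the 5 with the smallest p on the lower side were Cacnb2, a calcium channel subunit (-2.79), Nrxn3 (-2.72), a synaptic adhesion gene on the neuron list, Kcnip4 (-2.14) and Plcb1 (-2.12), each with an adjusted p of 0.122 by edgeR. On the higher side were Mcc (2.7, adjusted p = 0.124) and Gm26740 (1.69, adjusted p = 0.186). No gene of the border macrophage list (6 tested), of the class II list (4 tested) or of the risk gene list (7 tested) was called. The test of whether the genotype difference changed with age called 0 of 207 genes (0%), with 12 at an unadjusted p under 0.05 and 1, Colec12, by DESeq2.

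Colec12, the scavenger collectin of the border macrophage list, gave a genotype difference whose call depended on the doublets and on the tool. At 12 months it had 186, 619 and 549 CPM in the 3xTg-AD libraries, found in 1 of 4, 8 of 21 and 2 of 9 members, and 1071, 2704 and 1760 CPM in the WT libraries, found in 9 of 19, 14 of 15 and 2 of 3 members. At 6 months it had 1450, 1989 and 1791 CPM in 3xTg-AD and 0, 856 and 1021 CPM in WT. The 3xTg-AD libraries thus lay below all WT libraries at 12 months and above them at 6 months. With all members the 12-month difference (-1.98 ± 0.53, adjusted p = 0.16) and the interaction (-3.04 ± 0.78, adjusted p = 0.241) were not called by edgeR. Without the doublets Colec12 was called in both (-2.29, adjusted p = 0.00409, and -3.46, adjusted p = 0.0209), as it was in both by DESeq2 (-1.98, adjusted p = 0.0437, and -3.09, adjusted p = 0.0259). The only other gene called at 12 months without the doublets was Mctp1, a calcium-binding membrane protein (-1.69, adjusted p = 0.02), which was not called with them (-1.13, adjusted p = 0.474).

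Without the doublets the Colec12 levels at 12 months were 186, 635 and 643 CPM in 3xTg-AD and 1523, 3075 and 4049 CPM in WT, the last from 2 remaining members. In the microglia of the same libraries Colec12 stood at 0, 8.78 and 15.7 CPM in 3xTg-AD and at 2.55, 277 and 164 CPM in WT, so that the level outside the members was also higher in WT replicates 8 and 12. Over all nuclei of a library it had 17.9 to 34.3 CPM in 3xTg-AD and 22.6 to 40.3 CPM in WT. The part of that RNA in the difference was not tested.

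Between 12 and 6 months, with genotype as a term, 4 of 113 genes were called (3.54%), all higher at 12 months, with 9 at an unadjusted p under 0.05 and 3 called by DESeq2. Ptprd, a receptor phosphatase of synapses, had 234, 429 and 1250 CPM in the lowest, median and highest library at 6 months and 746, 1523 and 2501 CPM at 12 months (log2 fold change 2.09 ± 0.42, adjusted p = 0.00563). Kcnip4, a potassium channel partner, had 234, 532 and 1563 CPM and 639.8, 1352 and 4816 CPM (1.8 ± 0.47, adjusted p = 0.0274). Celf2, an RNA-binding protein, had 702, 841 and 1250 CPM and 932, 1886 and 2779 CPM (1.2 ± 0.31, adjusted p = 0.0274). The libraries of the 2 ages overlapped for all 3 genes.

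These 3 genes are strong in neurons, at 4141, 8973 and 3370 CPM for Ptprd, Kcnip4 and Celf2. In microglia they stood at 1016, 1826 and 1606 CPM, and in the pooled members at 1346, 1466 and 1604 CPM. The part of neuronal or microglial RNA in the differences was not tested. The doublets held 74.7% of the members' Ptprd UMIs, 65.0% of Kcnip4 and 47.0% of Celf2, and 7 of the 8 doublets were in 12-month libraries. The neuron list stood at 1094, 1259 and 1521 CPM in the lowest, median and highest library at 6 months and at 792, 4178 and 8738 CPM at 12 months, and at 1094 to 1636 and 706 to 3651 CPM without the doublets. Without them Celf2 was not called (0.4, adjusted p = 0.818), and Ptprd and Kcnip4 had too few UMIs to be tested. Leaving out single libraries ended the call of Celf2 for 8 of the 12 (adjusted p up to 0.176) and that of Kcnip4 for 6 (up to 0.192). In these fits, with the doublets kept, the log2 fold changes ran from 1.02 to 1.31 for Celf2 and from 1.35 to 2.03 for Kcnip4. Ptprd could be tested in only 9 of these fits and was called in them (1.84 to 2.3, adjusted p by edgeR up to 0.0477). It had too few UMIs to be tested without WT replicate 4 or 8 or 3xTg-AD replicate 6, all at 12 months.

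Tanc2, a scaffold protein, was the single called gene whose libraries did not overlap: 313, 576 and 815 CPM at 6 months and 1019, 1308 and 1672 CPM at 12 months (1.31 ± 0.31, adjusted p = 0.0173). The 12-month libraries, where Tanc2 is high, were by themselves enough for it to pass the filter on low counts. The gap between its libraries and its p-value are therefore a description and lend no support to a difference. Its neuronal level was 769 CPM and the doublets held 17.6% of its UMIs, but it reached 3082 CPM in microglia. Pooled over animals, 26.8% of the members at 12 months also passed the microglia rule, against 10.5% at 6 months. The libraries of the ages overlapped in this. At 12 months they ran from 0 of 9 (3xTg-AD replicate 10) to 2 of 3 members (WT replicate 12). At 6 months they ran from 0 of 9 (3xTg-AD replicate 1) to 3 of 13 (WT replicate 11). The summed microglia markers of the rule were 463 to 1119 CPM at 12 months and 313 to 936 CPM at 6 months. Without the doublets its difference kept its direction and was not called (1.16, adjusted p = 0.0858), nor was it without 3xTg-AD replicate 5 at 6 months (adjusted p = 0.0664) or replicate 6 at 12 months (adjusted p = 0.0656). The part of microglial RNA in the difference was not tested. Meg3, a non-coding RNA of neurons (1.33, adjusted p = 0.0875), and Man2a1 (-1.01, adjusted p = 0.146) were not called, nor was any of the 5 border macrophage genes or 2 risk genes tested, and no class II gene had enough UMIs to be tested.

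**Figure D5:**
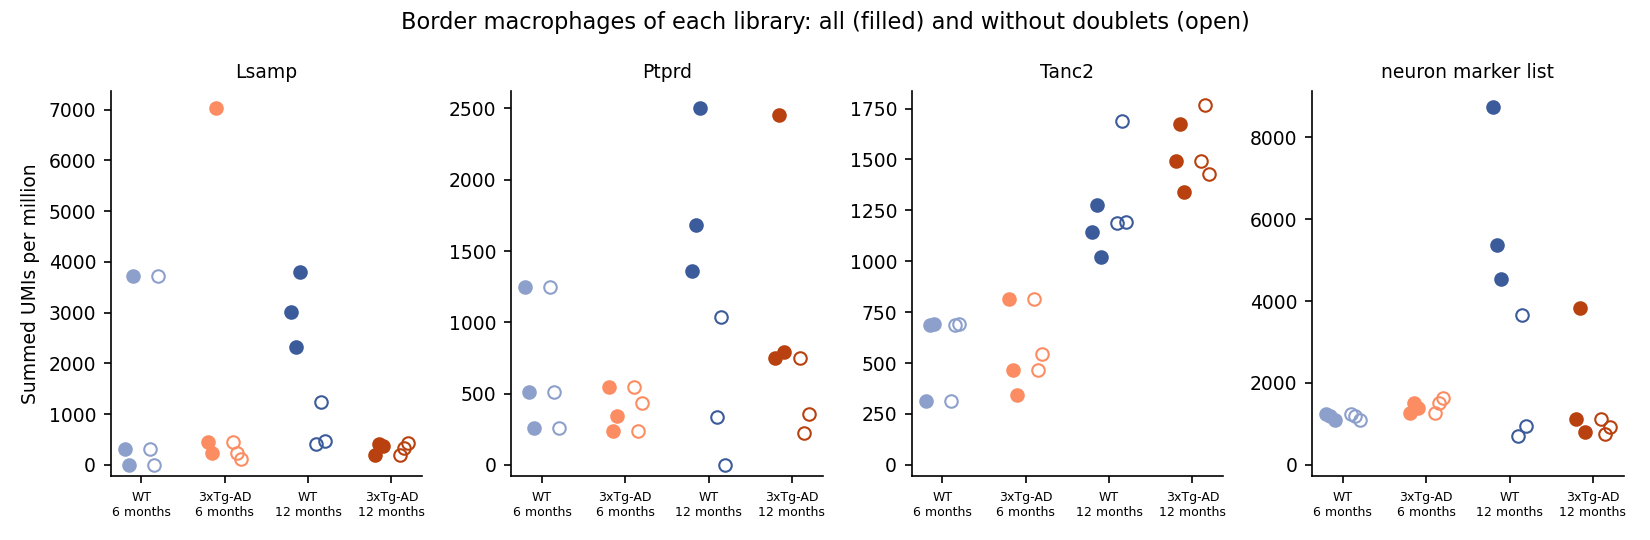
CPM of Lsamp, Ptprd, Tanc2 and the summed neuron list in the members of each library, by genotype and age, with all members (filled) and without the 8 doublets (open). Without the doublets the 3 WT libraries at 12 months are lower for Lsamp, Ptprd and the neuron list, and 3xTg-AD replicate 9 at 6 months goes from 7025 to 109 CPM of Lsamp. The 3xTg-AD libraries at 12 months lie at 186 to 413 CPM of Lsamp with all members and 186 to 429 CPM without the doublets, and Tanc2 stays between 1019 and 1672 CPM with all members and above every 6-month library.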

How the data were processed

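The authors aligned the reads (10x 3′ chemistry) to mm10 with Cell Ranger 6.1.1 and deposited filtered matrices, which hold UMI counts for genes in nuclei, of 12 libraries. These counts precede the authors' filters on nuclei. Whether they also precede the authors' removal of ambient RNA, which the paper describes as giving filtered matrices, was not checked. Free RNA may therefore still be in the values. Raw counts of the members were summed per library, scaled by TMM and tested with edgeR 4.0.16 (quasi-likelihood, filterByExpr, Benjamini-Hochberg, adjusted p under 0.05 and absolute log2 fold change over 0.2). DESeq2 1.42.0 was an alternative. The SE is the absolute log2 fold change divided by the square root of F. Two-sided exact permutation over libraries was the test for shares of nuclei. Doublets were called with Scrublet in scanpy 1.11.5 (expected rate 8%) and kept in the main values. Genes named are the 15 called genes per direction with the smallest adjusted p against microglia, 10 in other tests (with fewer than 5 called, the 5 with the smallest p), and members of the gene lists. Each library is 1 animal. The border macrophage rule, the lists and the genes were chosen with earlier results of these data known. Where the text says alternatives, leaving out each library in turn, another gate, doublet removal, thinning, other normalization, no filter and DESeq2 were run. Tests were checked on simulated counts, where TMM against microglia gave more false lower calls than the threshold allows and library sizes alone gave fewer, so the number of lower genes may be too high. Promoter sequences are from RefSeq (GRCm38.p6), of which all the genes shown matched. A few genes are not reported here.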

Additional observations from a re-analysis of the deposited data

How the results depend on the processing

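With 109 nuclei, depth limits every gene test: 1 library held 2 members, and TMM factors of the members ran from 0.85 to 1.71, highest in that library. For the shares of nuclei, the ratio to microglia and the class II share, no alternative passed the test. The 12-month minus 6-month difference per 100 microglia turned to -0.403 without doublets and to -0.195 when nuclei were thinned to 2000 UMIs, and the 6-month genotype difference in share to -0.565 thinned to 2000 and to -0.0653 thinned to 1000 UMIs; the cause was not tested. Leaving out each library in turn, the age difference in share ranged from 2.23 to 4.37 per 10000, the genotype difference from -0.742 to 2.55 at 6 months and from -4.57 to 0.784 at 12 months, the age difference in the ratio from -0.970 to 1.47 and in the class II share from 6.26 to 20.1 percentage points.

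Genes called by genotype at 12 months were 2 with no filter on low counts (Cntnap5a and Gpc5), 6 by DESeq2 (Lsamp, Kcnip4, Nrxn3, Kcnd2 and Colec12 lower and Mcc higher), 2 without doublets (Colec12 and Mctp1), and 0 when all 12 libraries shared 1 fit. Over both ages the count was 1 with no filter (Dcc) and 1 without libraries of fewer than 5 members (Nlgn1). By age it was 33 with no filter, 0 without doublets and 0 without libraries of fewer than 5 members. For the interaction it was 1 by DESeq2 and 1 without doublets, Colec12 in both. Against microglia, with no filter, 2372 of 20553 genes were called (327 higher, 2045 lower), 303 of them shared with the 408. The cause of this difference was not tested. Library sizes without TMM factors gave 169 higher and 239 lower, 391 of them shared with the 408. Leaving out each library gave 0 to 1 genes by genotype at 6 months (1 without 3xTg-AD replicate 9), 0 to 8 at 12 months (0 without 3xTg-AD replicate 2 or 10, 8 without WT replicate 4), 0 to 1 over both ages (Kcnip4 without WT replicate 11 at 6 months), 1 to 6 by age (1 without 3xTg-AD replicate 6 at 12 months), 0 to 1 for the interaction (Colec12 without WT replicate 4) and 368 to 443 against microglia. Lsamp at 12 months had an adjusted p (edgeR) of 0.094 with no filter, 0.327 in the fit of all 12 libraries, 0.0832 without replicate 2 and 0.0726 without replicate 10. Tanc2 had 0.25 with no filter, 0.0664 without 3xTg-AD replicate 5, 0.0656 without 3xTg-AD replicate 6 and 0.265 without libraries of fewer than 5 members. Cntnap5a, Gpc5, Kcnd2, Mctp1, Dcc and Nlgn1 were named after their values were seen. The comparison with microglia pairs both sums of a library, since they are from 1 animal; with no library block it called 507 genes, 209 higher and 298 lower, 394 shared with the 408. Of 1502 values of the 72 named genes there, 1449 kept their side of the threshold, 53 lost it (Trem2, Bin1, Ltc4s, Lamp1 and Mef2a each in 4 or more settings) and 0 reversed. No paired analysis was possible because genotypes and ages share no replicate numbers.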

Other observations

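Of 11 genes of iron and haem handling, 3 had enough UMIs to be compared with microglia by edgeR. Of all genes tested 7.83% were higher in the members. Fth1, the ferritin heavy chain, was higher in the members (0, 352 and 853 CPM in the lowest, median and highest library against 81.4, 148 and 246 CPM, log2 fold change 1.16), as was Nrros, which regulates TGF-beta activation and not iron (1.46). Hmox1, the haem oxygenase, had 3 UMIs in the members. Slc40a1, the iron exporter, stood at 121 CPM in the members and 89.0 CPM in microglia, with a fold of 1.36 and a counting interval of 0.889 to 2.0.

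Of 14 genes of the extracellular matrix and vessel support, only 3 had enough UMIs to be compared, and these 3 were lower in the members: the membrane proteases Adam10 (log2 fold change -1.07) and Adam17 (-1.39) and the lysosomal protease Lgmn (-1.21). Of all 1955 genes tested 13% were lower, and Adam10 and Adam17 reached the level of the filter in microglia alone. Interferon and inflammation genes were sparse, with 2 of 19 compared. Il10ra was lower (-1.02) but reached the level of the filter in microglia alone, and Ifit1, Ifit2 and Ifit3 had no UMI in the members. Ccl8, a chemokine, had 12 UMIs in 6 members and none in microglia, at least 66.7-fold higher against the limit of 3 counts. Ccl2, another chemokine, had 19 UMIs in 5 members, all in 1 library.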
